A study of Homo sapiens with 15 samples.

Results

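The vacuolar ATPase (V-ATPase) is the proton pump that acidifies lysosomes and endosomes, and the genes described here encode its membrane-embedded V0 domain together with its accessory proteins. They were the 9 genes ATP6V0A1, ATP6V0A2, ATP6V0B, ATP6V0C, ATP6V0D1, ATP6V0E1, ATP6V0E2, ATP6AP1 and ATP6AP2, taken by gene name from the 60107 gene identifiers listed for every library. 8 of the 9 had enough reads to be tested, among 10495 genes tested in all, and ATP6V0C did not. In the comparison of BAQ13-treated cells with vehicle, ATP6AP1 rose from 133 ± 24.3 to 243 ± 31.1 normalised counts and ATP6V0D1 rose from 24.6 ± 10.3 to 49.2 ± 5.33 (SD, n = 3 libraries each). The other 6 tested genes did not pass the test in that comparison, in which 3.58% of all genes rose and 2.19% fell. For Lys05, BAQ12 and BAQ12O against vehicle 0 of the 8 passed it, beside 0.238%, 0.981% and 1.48% of all genes. With shares this low, 0 of 8 says little about these genes. With all libraries, none of the 8 differed past the test between any pair of compounds.

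The cells were MIA PaCa-2, an established human pancreatic carcinoma line that the labels call epithelial. Bulk RNA was sequenced from 15 libraries in 5 groups of 3. Cells received vehicle (Ctrl), Lys05, BAQ12, BAQ13 or BAQ12O, each compound at 5 µM, and all groups were treated for 24 h. Lys05 is a bisaminoquinoline that inhibits autophagy and accumulates in lysosomes. BAQ12 and BAQ13 join the Lys05 headgroup to features of a lysosomotropic detergent and assemble into nanoparticles (NPs), and they differ by a single methylene group in the hydrophobic tail. BAQ12O is the agent name in the labels, the design text lists 12O, and no structure is given for it here. The labels do not say whether the libraries of a group came from separate cultures, so the p-values below measure the spread between these libraries, which may be technical.

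The V-ATPase couples ATP hydrolysis in its cytosolic V1 domain to proton transport through V0. Within V0, a ring of proteolipid c subunits (ATP6V0C and ATP6V0B) carries protons past the large a subunit (ATP6V0A1, ATP6V0A2 and other isoforms), the d subunit (ATP6V0D1) links the ring to the central stalk, and the small e subunits (ATP6V0E1, ATP6V0E2) sit beside it. ATP6AP1 (Ac45) and ATP6AP2 (the prorenin receptor) are accessory membrane proteins of the complex. Many lysosomal genes, V-ATPase genes among them, are known targets of the MiT/TFE transcription factors, which bind the E-box CACGTG and its extended form TCACGTGA. The study reported V-ATPase genes as raised from these same libraries, and it also reported a rise of V-ATPase genes by qPCR. The direction of the values below is not independent evidence for the part drawn from the libraries.

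All libraries held between 1586566 and 2500551 reads on genes and between 14815 and 15718 detected genes. Values below are normalised counts, that is, reads scaled by 1 factor per library, and 3 reads corresponded to 2.49 to 4.14 normalised counts. Keratin genes of epithelial cells were present (KRT8, 145 to 380 reads; KRT18, 470 to 1168; KRT19, 372 to 623), whereas the epithelial markers EPCAM and CDH1 had 0 to 1 and 0 to 5 reads, and of the mesenchymal markers VIM had 7323 to 12554 and CDH2 0 to 1. Of the defining markers of acinar cells, 4 of 4 had 0 reads in every library, and those of endocrine, leukocyte and endothelial cells had at most 6 reads. Of the fibroblast list, COL1A2 had 123 to 275 reads, COL1A1 at most 2 and PDGFRB 0. BAQ12 replicate 3 stood apart: its mean correlation with its own group was 0.934, against 0.956 to 0.982 for the other 14 libraries. Its expression relative to the mean of all libraries also had the most positive association with transcript GC content (Spearman's rho across genes 0.309), followed by BAQ13 replicate 1 (0.268) and replicate 2 (0.156), whereas the vehicle libraries lay between -0.18 and -0.051. Results that turn on BAQ12 replicate 3 are given with and without it.

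Promoter sequences were available from RefSeq (GRCh38.p14, 250 bases before to 50 after the start) for 8 of the 9 genes, and ATP6V0E1 was not matched. 3 windows are shown, for the ring subunit ATP6V0B with its pair of E-boxes and for the pair of genes that passed the test in BAQ13-treated cells, ATP6V0D1 and ATP6AP1. Capitals mark CACGTG. The windows are chr1:43974710-43975009 (plus strand), chr16:67481108-67481407 (minus strand) and chrX:154428427-154428726 (plus strand), written from 5′ to 3′ along the gene.
ATP6V0B: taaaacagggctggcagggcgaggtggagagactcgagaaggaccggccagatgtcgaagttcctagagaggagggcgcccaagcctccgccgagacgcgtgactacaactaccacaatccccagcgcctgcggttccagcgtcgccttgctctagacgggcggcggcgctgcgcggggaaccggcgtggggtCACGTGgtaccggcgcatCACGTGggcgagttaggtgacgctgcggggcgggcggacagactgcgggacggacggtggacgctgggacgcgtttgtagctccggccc
ATP6V0D1: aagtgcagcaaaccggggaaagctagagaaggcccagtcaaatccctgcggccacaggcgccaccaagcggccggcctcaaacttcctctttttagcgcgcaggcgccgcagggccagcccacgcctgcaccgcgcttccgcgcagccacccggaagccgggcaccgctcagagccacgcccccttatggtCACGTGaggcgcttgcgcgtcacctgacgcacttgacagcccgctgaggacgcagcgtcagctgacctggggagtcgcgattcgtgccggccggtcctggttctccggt
ATP6AP1: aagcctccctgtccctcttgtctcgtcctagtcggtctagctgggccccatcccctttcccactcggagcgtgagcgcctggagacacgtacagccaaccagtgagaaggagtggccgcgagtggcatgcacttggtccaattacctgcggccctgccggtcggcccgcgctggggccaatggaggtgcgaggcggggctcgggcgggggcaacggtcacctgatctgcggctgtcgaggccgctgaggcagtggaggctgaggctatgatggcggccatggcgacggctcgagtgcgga
The word CACGTG, which reads the same on both strands, was found in 3 of the 8 genes. ATP6V0B held it at 57 and 39 bases before the start, and ATP6V0D1 at 59 bases. ATP6V0E2 held it at 72 or 68 bases in the windows of its upstream annotated starts. A further ATP6V0E2 window, chr7:149873719-149874018, held 0. It occurred in 8.77% of the 27305 genes with a promoter window. The longer word TCACGTGA, which contains CACGTG, was found in ATP6V0D1 alone of the 8 and in 1.18% of all genes. ATP6AP1, which rose in BAQ13-treated cells as ATP6V0D1 did, had no CACGTG in its window. These matches describe the letters only.

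**Figure D1:**
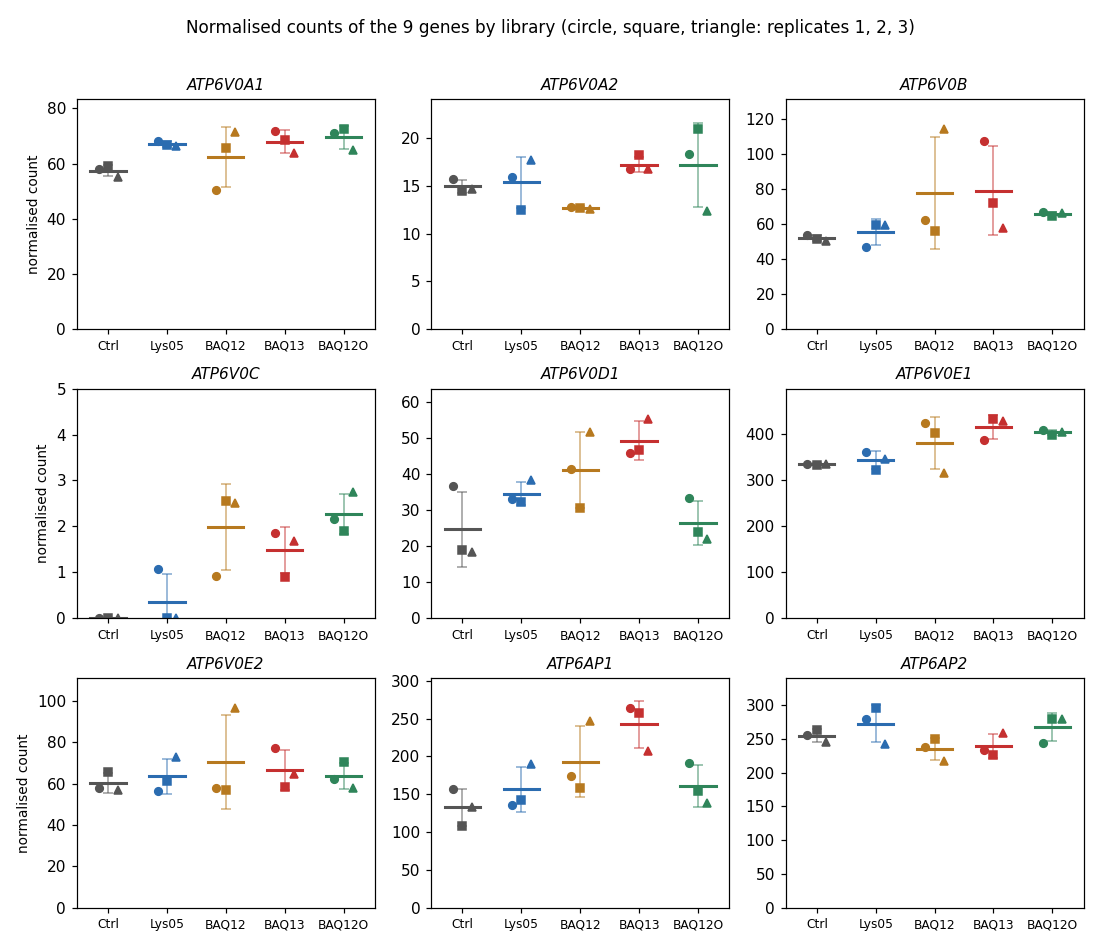
Normalised counts (vertical axis, from 0) of the 9 V0 and accessory genes in each of the 15 libraries, by group (horizontal axis); symbols are replicates, horizontal bars group means and error bars SD (n = 3). The 3 BAQ13 libraries lie above all 3 vehicle libraries for ATP6V0D1 and ATP6AP1, BAQ12 replicate 3 (triangle) is the highest library for ATP6V0B and ATP6V0E2, and ATP6V0C stays below 3 normalised counts.

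The a subunits gave values within narrow limits. ATP6V0A1, the widely expressed a1 isoform (ENSG00000033627, chr17:42458844-42522611, plus strand, GENCODE 29 on GRCh38), measured 58.1, 59.2 and 55.1 normalised counts in vehicle. It measured 68.1, 66.65 and 66.3 in Lys05, 50.4, 65.5 and 71.6 in BAQ12, 71.9, 68.4 and 63.7 in BAQ13, and 71.1, 72.5 and 64.8 in BAQ12O. Every Lys05, BAQ13 and BAQ12O library was thus above every vehicle library, and only BAQ12 overlapped vehicle. Of all genes tested, 8.24% lay above vehicle in this way for Lys05, 7.75% for BAQ12, 14.5% for BAQ13 and 12.5% for BAQ12O. These shares apply to each gene below as well. The differences from vehicle were small, with log2 fold changes of 0.22 for Lys05, 0.10 for BAQ12, 0.24 for BAQ13 and 0.27 for BAQ12O, and none passed the test (limma, adjusted p = 0.999, 0.763, 0.375 and 0.43). The 95% interval for BAQ13 ran from -0.05 to 0.53, so a rise of up to that size was not excluded.

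ATP6V0A2, the a2 isoform best known from the Golgi and endosomes (ENSG00000185344, chr12:123712318-123761755, plus strand), rested on only 9 to 22 reads per library. Its normalised counts were 15.8, 14.5 and 14.7 in vehicle, 15.97, 12.5 and 17.7 in Lys05, 12.8, 12.7 and 12.6 in BAQ12, 16.8, 18.2 and 16.8 in BAQ13, and 18.3, 21.0 and 12.4 in BAQ12O. The BAQ12 libraries lay below all vehicle libraries, as for 7.61% of all genes, and the BAQ13 libraries above them, as for 14.5%. Neither difference passed the test (limma log2 fold change -0.22, adjusted p = 0.702, and 0.19, adjusted p = 0.72), nor did BAQ13 against BAQ12 directly (0.41, 95% interval -0.08 to 0.90, adjusted p = 0.705). It had the fewest reads of the 8 tested V0 and accessory genes.

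The proteolipid ring was measured through ATP6V0B, the c″ subunit (ENSG00000117410, chr1:43974487-43978295, plus strand). Its normalised counts were 54.0, 51.4 and 50.5 in vehicle and 46.9, 59.4 and 59.7 in Lys05. In BAQ12 they were 62.4, 56.1 and 114, in BAQ13 107, 72.0 and 57.8, and in BAQ12O 66.8, 64.8 and 66.2. The BAQ12, BAQ13 and BAQ12O libraries were all above vehicle, but a single library in each of the BAQ12 and BAQ13 groups carried much of the difference. Against vehicle, the log2 fold change was 0.50 for BAQ12 (adjusted p = 0.423), 0.55 for BAQ13 (adjusted p = 0.198) and 0.34 for BAQ12O (adjusted p = 0.583), none past the test with limma.

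The high ATP6V0B libraries, BAQ12 replicate 3 and BAQ13 replicate 1, were also the libraries with the most positive association with GC content, and the longest ATP6V0B transcript has 56.5% GC against a median of 47.9% among genes tested. With each library's values corrected for transcript GC content, its BAQ13 log2 fold change was 0.48 (adjusted p = 0.206, limma). With BAQ12 replicate 3 left out, the BAQ12 mean was 59.2 and its log2 fold change 0.18 (adjusted p = 0.86, limma). The BAQ13 estimate cannot change with that library, which is in neither group. Its interval narrowed to 0.20 to 0.90 and it passed the test (adjusted p = 0.0294, limma), against 13.5% of all genes. Leaving out 1 library of BAQ13 or vehicle, the log2 fold change ranged from 0.31, without BAQ13 replicate 1, to 0.75. It passed in 0 of those 6 fits.

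ATP6V0C, the c subunit that forms most of the ring (ENSG00000185883, chr16:2513870-2520218, plus strand), had almost no reads. In vehicle it had 0 reads in every library, in Lys05 1, 0 and 0, in BAQ12 1, 3 and 2, in BAQ13 2, 1 and 2, and in BAQ12O 2, 2 and 2. All 9 libraries of the BAQ groups thus held at least 1 read and no vehicle library did, but no library exceeded 3 reads, so no fold change is given and the gene was not tested. Its level is uncertain with so few reads, and 72.1% of its annotated exonic bases, and 100% of the last 500, are shared on the same strand with other genes. AC093525.2 (ENSG00000260272), a readthrough gene, covers those last 500 bases and had 0 reads in every library, as did AC093525.1, which shares bases of the first exon. Reads that fall on exons of more than a single gene are usually left out by HTSeq, the counter named in the submitters' processing notes. Whether that applied here was not tested.

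**Figure D2:**
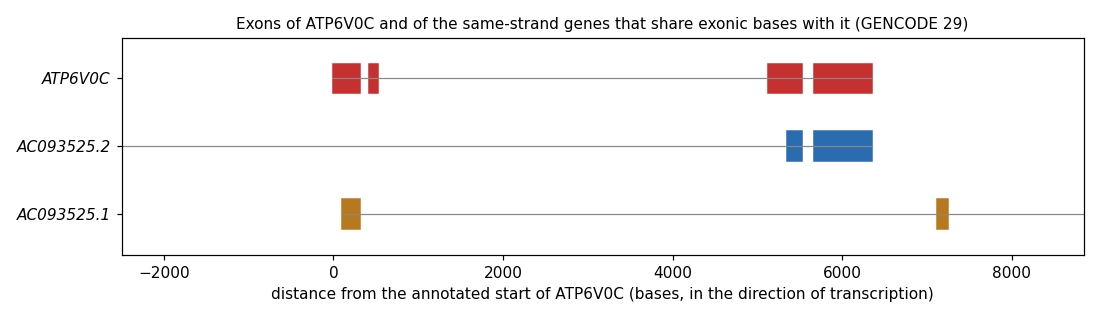
Exons (boxes) of ATP6V0C and of the genes on the same strand that share exonic bases with it, by distance in bases from the annotated start of ATP6V0C; lines are introns, and the other genes run on beyond the plot. The last exon block of ATP6V0C, from 5671 to 6348 bases, is also an exon of AC093525.2, and 218 bases of its first exon block are shared with AC093525.1.

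The d subunit gene ATP6V0D1 (ENSG00000159720, chr16:67438014-67481237, minus strand) showed the largest log2 fold change of the 8 tested genes in BAQ13-treated cells. Its normalised counts were 36.5, 19.0 and 18.4 in vehicle, 33.0, 32.3 and 38.3 in Lys05, 41.3, 30.6 and 51.5 in BAQ12, 45.7, 46.5 and 55.3 in BAQ13, and 33.4, 23.8 and 22.1 in BAQ12O. The BAQ13 libraries were all above the vehicle libraries. Lys05, BAQ12 and BAQ12O overlapped vehicle through vehicle replicate 1, which lay within the Lys05 and BAQ12 ranges and above every BAQ12O library. The BAQ12O libraries were all above the other vehicle libraries.

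In BAQ13-treated cells ATP6V0D1 rose with a log2 fold change of 1.04 (SE 0.25, 95% interval 0.50 to 1.57, adjusted p = 0.0204, limma). On the log2 scale of that test, it was the only 1 of the 8 to reach a fold change of 2 at an unadjusted p of 0.05. In the upward direction 1.46% of all genes tested did so in that comparison. Its ratio of mean normalised counts, 1.997, was just under 2. The log2 fold change was 0.54 for Lys05 (0.00 to 1.07, adjusted p = 0.993), 0.76 for BAQ12 (0.22 to 1.29, adjusted p = 0.234) and 0.15 for BAQ12O (-0.39 to 0.68, adjusted p = 0.858), none past the test. Without BAQ12 replicate 3 the BAQ12 log2 fold change was 0.58 (0.06 to 1.11, adjusted p = 0.456, limma).

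The call for ATP6V0D1 rested on 16 to 66 reads per library and was lost when single libraries were left out. Its adjusted p was 0.109 without vehicle replicate 2, 0.115 without vehicle replicate 3, 0.0577 without BAQ13 replicate 2 and 0.076 without BAQ13 replicate 3, with log2 fold changes of 0.89, 0.87, 1.07 and 0.95. Without vehicle replicate 1, the high vehicle library, the log2 fold change was 1.35 (adjusted p = 0.00296). After a correction for transcript GC content, of which the longest ATP6V0D1 transcript has 58.1%, it was 0.95 (adjusted p = 0.0223).

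Of the small e subunits, ATP6V0E1 (ENSG00000113732, chr5:172983757-173035445, plus strand) was counted with 251 to 509 reads per library and was the most even gene in vehicle, at 335, 332 and 335 normalised counts. It measured 360, 322 and 346 in Lys05, 423, 402 and 315 in BAQ12, 385, 433 and 427 in BAQ13, and 409, 397 and 404 in BAQ12O. The BAQ13 and BAQ12O libraries were all above vehicle. In BAQ12, replicates 1 and 2 were above vehicle and replicate 3 below it.

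The ATP6V0E1 log2 fold change was 0.31 for BAQ13 (0.10 to 0.52, adjusted p = 0.0778, limma) and 0.27 for BAQ12O (0.06 to 0.48, adjusted p = 0.23), neither past the test, and 0.17 for BAQ12 (adjusted p = 0.483) and 0.04 for Lys05 (adjusted p = 0.999). Whether these passed depended on the library that stood apart. Without BAQ12 replicate 3, BAQ13 (adjusted p = 0.00566, limma) and BAQ12O (adjusted p = 0.0348) passed the test, against 13.5% and 4.94% of all genes. Their log2 fold changes cannot change with a BAQ12 library, and only the intervals narrowed. BAQ12 had 0.30 (adjusted p = 0.0854). ATP6V0E1 also passed for BAQ13 after the GC correction (log2 fold change 0.36, adjusted p = 0.017).

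ATP6V0E2, the other e isoform (ENSG00000171130, chr7:149872968-149891204, plus strand), measured 58.1, 65.9 and 56.9 in vehicle and 56.4, 61.4 and 72.8 in Lys05. It measured 57.8, 57.0 and 96.7 in BAQ12, 77.5, 58.3 and 64.5 in BAQ13, and 62.5, 70.6 and 57.9 in BAQ12O. All compound groups overlapped vehicle, and BAQ12 replicate 3 was the highest library, so that the BAQ12 log2 fold change turned from 0.18 to -0.07 without it. No difference passed the test with limma, the BAQ13 log2 fold change being 0.14 (-0.26 to 0.53, adjusted p = 0.752). The annotation places 93.2% of the last 500 exonic bases of ATP6V0E2 within the lincRNA AC092681.3 on the same strand, which had 0 reads in every library, and whether reads were lost to that overlap was not tested. The antisense gene ATP6V0E2-AS1 had 3 to 16 reads.

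Of the accessory proteins, ATP6AP1 (ENSG00000071553, chrX:154428632-154436516, plus strand) was the gene with the lowest adjusted p of the 8. Its normalised counts were 157, 108 and 133 in vehicle, 136, 143 and 190 in Lys05, 174, 158 and 246 in BAQ12, 264, 257 and 207 in BAQ13, and 192, 154 and 138 in BAQ12O. The BAQ13 and BAQ12 libraries were all above vehicle, whereas Lys05 and BAQ12O overlapped it. The lowest BAQ13 library, 207, was above every Lys05 and BAQ12O library.

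In BAQ13-treated cells ATP6AP1 rose with a log2 fold change of 0.87 (SE 0.18, 95% interval 0.49 to 1.26, adjusted p = 0.00738, limma), 1.83-fold as a ratio of means. The log2 fold change was 0.52 for BAQ12 (0.14 to 0.91, adjusted p = 0.263), 0.28 for BAQ12O (-0.10 to 0.67, adjusted p = 0.555) and 0.24 for Lys05 (-0.15 to 0.62, adjusted p = 0.999), none past the test. Without BAQ12 replicate 3 the BAQ12 mean was 166 and its log2 fold change 0.34 (0.02 to 0.65, adjusted p = 0.499, limma). The BAQ13 call was lost without vehicle replicate 2 (log2 fold change 0.74, adjusted p = 0.0579) and held in the other 14 fits that left out 1 library. The highest values, in BAQ13 replicates 1 and 2 and BAQ12 replicate 3, came from the 3 libraries with the most positive association with GC content. With the GC correction the BAQ13 log2 fold change was 0.82 (adjusted p = 0.00468).

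ATP6AP2 (ENSG00000182220, chrX:40579372-40606848, plus strand), counted with 173 to 309 reads per library, moved differently in value. It measured 256, 264 and 245 in vehicle, 279, 296 and 243 in Lys05, 239, 250 and 217 in BAQ12, 233, 226 and 259 in BAQ13, and 244, 279 and 280 in BAQ12O. All groups overlapped vehicle. Its log2 fold change was -0.09 for BAQ13 (-0.30 to 0.12, adjusted p = 0.69, limma) and -0.12 for BAQ12 (adjusted p = 0.64), and 0.09 for Lys05 (adjusted p = 0.999) and 0.07 for BAQ12O (adjusted p = 0.828). The interval for BAQ13 lay below the ATP6AP1 estimate of 0.87, but the difference between the genes was not tested.

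**Figure D3:**
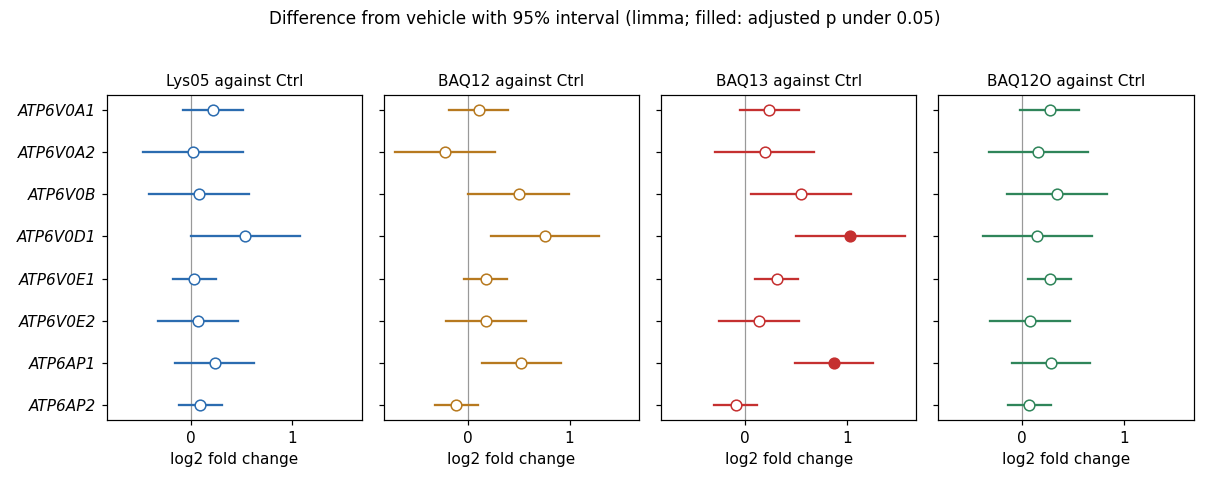
Log2 fold change against vehicle (horizontal axis) of the 8 tested V0 and accessory genes for each compound, with 95% intervals from limma; filled points have an adjusted p under 0.05. Only ATP6V0D1 (1.04) and ATP6AP1 (0.87) in BAQ13 against Ctrl are filled, and most points for all 4 compounds lie right of 0.

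Read together against vehicle, 2 of the 8 tested genes rose and 0 fell in BAQ13-treated cells, where 3.58% of all genes tested rose and 2.19% fell. For Lys05 0 of 8 were called (0.238% of all genes), for BAQ12 0 (0.981%) and for BAQ12O 0 (1.48%). edgeR and DESeq2 on the recovered reads gave the same 0 for those compounds and the same 2 genes for BAQ13. At an unadjusted p under 0.05, limma counted 1 gene for Lys05, 3 for BAQ12, 4 for BAQ13 and 1 for BAQ12O, beside 4.98%, 11.8%, 19.4% and 12.8% of all genes. With shares of all genes called this low, 0 of 8 says little about the members, and 1 of 8 at an unadjusted p is near the share of all genes.

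In values, 7 of the 8 genes were higher in BAQ13 than in vehicle, 8 in Lys05, 6 in BAQ12 and 8 in BAQ12O, with median log2 fold changes of 0.27, 0.09, 0.18 and 0.21. Over all genes tested the medians were within 0.01 of 0, and 49.5% to 50.4% of genes were higher. The BAQ13 libraries did not overlap vehicle, and lay above it, for 6 of the 8 genes, against 14.5% of all genes. The count was 1 for Lys05 (8.24% of all genes), 2 for BAQ12 (7.75%) and 3 for BAQ12O (12.5%). These 4 comparisons share the same 3 vehicle libraries and are not independent of each other.

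The fit without BAQ12 replicate 3 called more genes everywhere, and for BAQ13 against vehicle it called 4 of the 8, ATP6AP1 (adjusted p = 4.9e-05), ATP6V0D1 (adjusted p = 0.00241), ATP6V0E1 and ATP6V0B, against 13.5% of all genes. For BAQ12O it called ATP6V0E1 alone (4.94% of all genes), and for BAQ12 (1.29%) and Lys05 (0.479%) 0 of the 8.

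**Figure D4:**
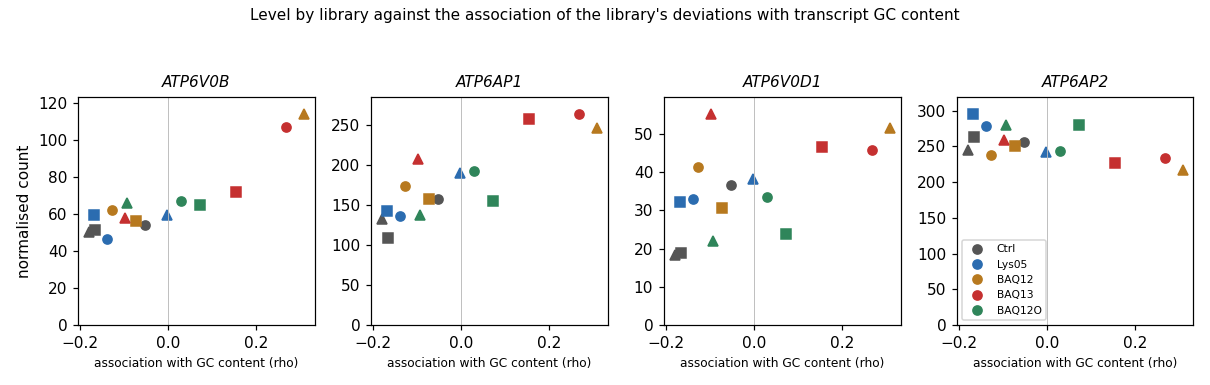
Normalised counts of ATP6V0B, ATP6AP1, ATP6V0D1 and ATP6AP2 in each library (vertical axes, from 0) against Spearman's rho, across genes, between the library's deviations from the mean of all libraries and transcript GC content (horizontal axis); colours are groups and symbols replicates. The libraries with the highest rho, BAQ12 replicate 3 (0.309) and BAQ13 replicate 1 (0.268), have the highest ATP6V0B counts, 114 and 107, whereas the highest ATP6V0D1 count, 55.3, is in BAQ13 replicate 3 (rho -0.098).

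The compounds were also compared with each other, in 6 pairs at the same dose and time. No member passed the test in any pair, whether p-values were adjusted over the genes of each comparison or over all 10 comparisons jointly. The shares of all genes called were 0.162% for BAQ12 against Lys05, 2.66% for BAQ13 against Lys05, 0.248% for BAQ12O against Lys05, 0.562% for BAQ13 against BAQ12, 0.229% for BAQ12O against BAQ12 and 1.39% for BAQ12O against BAQ13. In the same order, 0, 2, 1, 0, 1 and 2 members had an unadjusted p under 0.05 with limma, beside 7.17%, 14.6%, 7.36%, 8.27%, 8.38% and 11.2% of all genes, and edgeR and DESeq2 called 0 in every pair.

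BAQ12 and BAQ13, which differ by a methylene group in the tail, did not differ detectably in any of the 8 genes. The log2 difference, BAQ13 minus BAQ12, was 0.35 for ATP6AP1 (-0.04 to 0.73, adjusted p = 0.657, limma), 0.28 for ATP6V0D1 (-0.26 to 0.81, adjusted p = 0.852) and 0.41 for ATP6V0A2. For ATP6V0B it was 0.05 (-0.44 to 0.54) and for ATP6V0E1 0.14 (-0.07 to 0.35). With all libraries the upper bound for ATP6V0B, 0.54, is close to its difference between BAQ13 and vehicle, 0.55. Without BAQ12 replicate 3 the ATP6AP1 difference was 0.54 (0.22 to 0.86, adjusted p = 0.0542), and that of ATP6V0E1 was 0.01 (-0.17 to 0.18). The ATP6V0B difference was then 0.37 (-0.02 to 0.75, adjusted p = 0.363, limma). That of ATP6V0D1 was 0.45 (-0.07 to 0.98, adjusted p = 0.415).

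BAQ13 against Lys05, the parent bisaminoquinoline, gave a log2 difference of 0.64 for ATP6AP1 (0.25 to 1.02, adjusted p = 0.08, limma), 0.28 for ATP6V0E1 (0.07 to 0.48, adjusted p = 0.181) and 0.50 for ATP6V0D1 (-0.04 to 1.03, adjusted p = 0.389). In each of these 3 genes the BAQ13 libraries were all above the Lys05 libraries, as was true in the upward direction of 12.3% of all genes. When that library was left out, ATP6AP1 (adjusted p = 0.00342) and ATP6V0E1 (adjusted p = 0.0224) passed the test in this pair, against 7.61% of all genes.

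BAQ12O against BAQ13 gave -0.59 for ATP6AP1 (-0.98 to -0.20, adjusted p = 0.167, limma) and -0.89 for ATP6V0D1 (-1.42 to -0.35, adjusted p = 0.126), with the BAQ12O libraries all below the BAQ13 libraries in both, as for 9.32% of all genes. For ATP6V0E1 the pair differed by -0.04 (-0.25 to 0.17). Both ATP6AP1 (adjusted p = 0.0118) and ATP6V0D1 (adjusted p = 0.0238) passed the test without BAQ12 replicate 3, against 3.65% of all genes. In the remaining pairs the log2 difference furthest from 0 was that of ATP6V0D1 in BAQ12O against BAQ12, -0.61 (-1.14 to -0.08, adjusted p = 0.52). Without BAQ12 replicate 3 that difference was -0.44 (-0.96 to 0.09, adjusted p = 0.518, limma), and no member passed in the remaining pairs.

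Ordered by mean level, BAQ13 was highest for ATP6V0A2, ATP6V0B, ATP6V0D1, ATP6V0E1 and ATP6AP1, BAQ12O for ATP6V0A1, BAQ12 for ATP6V0E2 and Lys05 for ATP6AP2. Vehicle was lowest for 6 of the 8 tested genes, the exceptions being ATP6V0A2 and ATP6AP2, where BAQ12 was lowest. These orders moved without BAQ12 replicate 3: for ATP6V0E2 BAQ12 went from highest to lowest (57.4), for ATP6AP2 BAQ13 became lowest (239, beside 244 for BAQ12), and vehicle was lowest for 5 genes. With all libraries, no group differed from its neighbour in any of these orders, the lowest adjusted p being 0.657, for ATP6AP1 between BAQ13 and BAQ12.

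Across the 15 libraries, on the log2 scale, ATP6V0D1 and ATP6AP1 varied together (Pearson's r = 0.844), as did ATP6V0B with ATP6V0E2 (0.777) and with ATP6AP1 (0.775), whereas ATP6AP1 and ATP6AP2 ran opposite (-0.729). The points share treatment groups, library depth and the GC association above, so these values describe the libraries only. Of all other genes tested, those most like ATP6V0D1 included FXR1 (r = 0.929), ACBD3 (0.924), EEF2 (0.905) and KCTD20 (0.848). Those most like ATP6AP1 were IER3 (r = 0.927), TPRG1L (0.925), FADS1 (0.924), EEF1D (0.914) and EEF2 (0.911), so EEF2, the translation elongation factor, was in both lists.

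The other genes of the pump and its regulators were read from lists. Of 13 V1 subunit genes 9 were tested, and in BAQ13 against vehicle 2 of the 9 rose and 0 fell, beside 3.58% and 2.19% of all genes. ATP6V1E1, a peripheral stalk subunit, rose from 181 ± 16.5 to 277 ± 42.5 normalised counts (log2 fold change 0.60, 0.29 to 0.91, adjusted p = 0.0207, limma). ATP6V1G1, another stalk subunit, rose from 422 ± 34.7 to 557 ± 47.6 (0.40, 0.19 to 0.61, adjusted p = 0.0209). All 9 had higher values in BAQ13, with a median log2 fold change of 0.25, beside 0.27 for the V0 and accessory genes. The same 2 V1 genes were called by edgeR and DESeq2. Without BAQ12 replicate 3 limma called 3 of 9, with ATP6V1D added (adjusted p = 0.0124), against 13.5% of all genes.

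Lys05, BAQ12 and BAQ12O against vehicle gave 0 calls among the V1 genes with limma, beside 0.238%, 0.981% and 1.48% of all genes. At an unadjusted p under 0.05 limma also counted 0, beside 4.98%, 11.8% and 12.8%. edgeR and DESeq2 called 0. The median log2 fold changes were 0.00, 0.18 and 0.15. Between compounds, ATP6V1G1 was higher in BAQ13 than in Lys05 (0.41, adjusted p = 0.035) and lower in BAQ12O than in BAQ13 (-0.43, adjusted p = 0.0342). Not every V1 gene of the list had a promoter window, and some that did were too low to test. Of those with a window, ATP6V1G1 alone held CACGTG, and it held TCACGTGA as well. ATP6V1E1, the other V1 gene called, held no CACGTG. Of all genes with a window, 8.77% held CACGTG and 1.18% TCACGTGA.

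Among 12 assembly and regulatory genes 11 were tested, and among 5 further V0 and accessory genes 2. None passed the test against vehicle in any of the 4 comparisons, with limma, edgeR or DESeq2. At an unadjusted p under 0.05 limma counted 0 of the 11 and 1 of the 2 for Lys05, 1 and 1 for BAQ12, 2 and 1 for BAQ13, and 2 and 2 for BAQ12O, counts that for the 11 stand beside the shares of all genes given above (4.98% to 19.4%). The median of the 11 for BAQ13 was -0.01. Between compounds, RNASEK, a small V-ATPase-associated protein, was higher in BAQ13 than in Lys05 (14.4 against 4.41 normalised counts, log2 fold change 1.49, adjusted p = 0.0107, limma). It rested on 4 to 23 reads per library in these groups, was called by edgeR and not by DESeq2, and 85.0% of its last 500 exonic bases are shared with another gene on the same strand. Without BAQ12 replicate 3, VMA21, an assembly factor of V0 in the endoplasmic reticulum, was called as lower in BAQ13 and BAQ12O than in vehicle (log2 fold change -0.41 in both). That fit called 13.5% and 4.94% of all genes in these comparisons. With all libraries the VMA21 differences did not pass (adjusted p = 0.069 and 0.138, limma). Of the TFE factors only TFE3 was tested, with a log2 fold change of 0.33 for BAQ13 (adjusted p = 0.234, limma). TFE3 was called without BAQ12 replicate 3, as were 13.5% of all genes. TFEB had at most 6 reads in a library, MITF at most 4 and TFEC 0. Also too low to test were the a3 and a4 subunit genes TCIRG1 (at most 8 reads) and ATP6V0A4 (at most 1), the d2 gene ATP6V0D2 (at most 1), TLDC2 (0) and the V1 genes ATP6V1B1 (at most 3), ATP6V1C2 (at most 1), ATP6V1G2 (at most 2) and ATP6V1G3 (0).

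**Figure D5:**
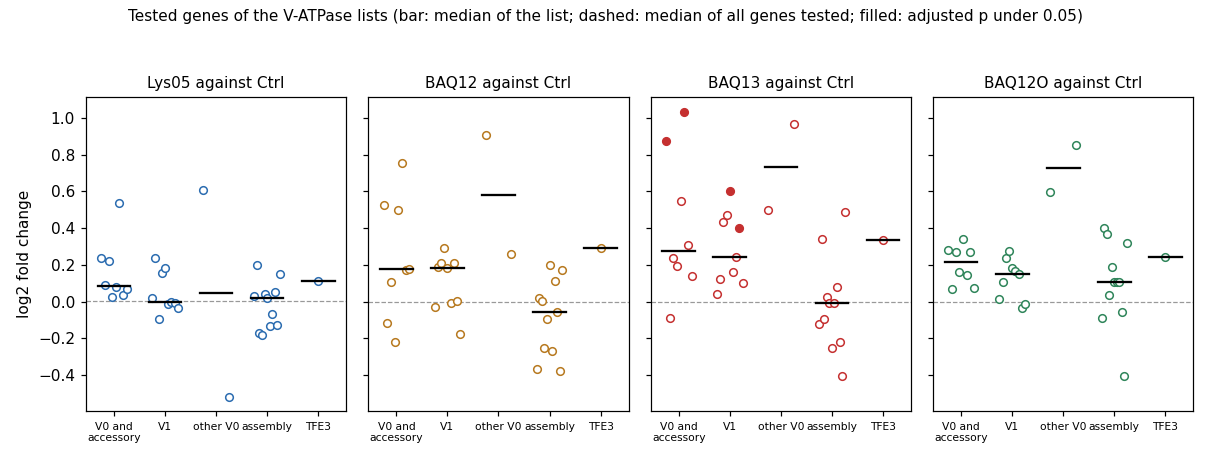
Log2 fold change against vehicle (vertical axis) of each tested gene of the V-ATPase lists (horizontal axis) for the 4 compounds; bars are list medians, the dashed line is the median of all genes tested, and filled points have an adjusted p under 0.05 (limma). In BAQ13 the V0 and accessory genes (median 0.27) and the V1 genes (0.25) each have 2 filled points, and the assembly genes have a median of -0.01.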

How the data were processed

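Gene expression was measured in 15 bulk libraries of MIA PaCa-2 cells, 3 per group. Per the labels, libraries were made with a QuantSeq 3′ kit, whereas the study's methods name a stranded paired-end kit, and this was not settled. The submitters' processing notes name STAR, HTSeq, DESeq2 and GRCh38, without versions, and the annotation release is not given in the sources used here. The authors deposited a normalised signal, the read count of each gene divided by 1 size factor per library. Whole reads were recovered from it (100% of values within 0.001 of a whole number), and edgeR then called 689 genes and DESeq2 535 in BAQ13 against vehicle. The 92 spike-in identifiers had 0 reads. Total RNA per cell cannot be read from values scaled in this way.

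Genes were kept by edgeR's filterByExpr (minimum count 10, minimum total 15; 10495 kept), values were tested as log2(value + 1) with limma 3.58.1 (trend) on all 15 libraries, and p-values were adjusted by Benjamini-Hochberg over all genes of each of 10 comparisons, with a threshold of 0.05. Fold changes on this scale understate changes of genes with few reads. Alternatives used edgeR 4.0.16 and DESeq2 1.42.0 on recovered reads, pseudocounts of 0.1 and 5, other filters, TMM factors, only the 6 libraries compared, a replicate block, joint adjustment and leaving out each library; a correction for GC content (natural spline, 5 degrees of freedom per library) was chosen after seeing the data. R 4.3.3 and Python 3.11.15 were used, and the fits were tested on simulated counts. Gene positions came from GENCODE 29 (56531 of 60107 identifiers matched) and promoters from RefSeq.

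The members and lists were chosen with earlier results of these data known. All 9 members are named. A listed gene is named if it was called against vehicle or was too low to test, and others named (ATP6V1D, VMA21, TFE3, RNASEK) were chosen after their values were seen. For each member called against vehicle the 5 genes with the highest Pearson correlation are named, except 1 that is not reported here.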

Additional observations from a re-analysis of the deposited data

How the results depend on the processing

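The BAQ13 calls rested on few libraries. With limma p-values adjusted over all 10 comparisons jointly, ATP6AP1 was the 1 member called for BAQ13 against vehicle (adjusted p = 0.0224). ATP6V0D1 was not (0.0622), and 356 genes were called in all. Leaving out 1 library gave 0 to 4 members. The count was 0 without vehicle replicate 2 (325 genes in all) and 4 without BAQ12 replicate 3 (1436). It was 1 without vehicle replicate 3 (320), BAQ13 replicate 2 (369) or BAQ13 replicate 3 (469). The main fit called 606 genes, so calls over all genes also fell wherever fewer members were called. With only the 6 libraries compared, 1 member was called for BAQ12O against vehicle (ATP6V0E1, with 8.94% of all genes called; 0 to 1 leaving out 1 library), 1 for BAQ13 against Lys05 (ATP6AP1, with 3.92%; 0 to 2) and 2 for BAQ12O against BAQ13 (ATP6AP1 and ATP6V0D1, with 1.52%; 0 to 2). The interval of ATP6AP1 in BAQ13 against vehicle was narrower without BAQ12 replicate 3 (0.59 to 1.16, beside 0.49 to 1.26). That of ATP6V0A2 was wider (-0.34 to 0.73, beside -0.30 to 0.68). The estimates were the same, because that library is in neither group. Only the spread estimated over all libraries and the genes kept differed between these fits. Without BAQ12 replicate 3, 1436 genes were called for BAQ13 against vehicle, beside 606 with it. The GC correction gave 3 members for BAQ13 against vehicle, with ATP6V0E1 added, and 619 genes in all.

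The correlations of the deviations of same-numbered libraries ran from -0.492 to 0.2, and in no comparison were all 3 over 0.1 (BAQ12 against Lys05 had 0.11, 0.0604 and 0.2), so the numbers were not taken to pair the libraries. With the replicate block 2 members were called for BAQ13 against vehicle (ATP6AP1, adjusted p = 0.013; ATP6V0D1, 0.0239), 3 with the GC correction as well, and 0 in the other 9 comparisons; over all genes the block moved the BAQ13 count from 606 to 512.

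Of 2150 alternative values for 80 fold changes, 2085 kept their direction and side of the threshold, 6 lost the call, 14 gained it and 45 turned sign, the last in 25 fold changes that were not called. Turned by a setting other than leaving out a library were ATP6V0A1 in BAQ13 against Lys05 (-0.012 with the GC correction, with and without the block), ATP6AP2 in BAQ12O against Lys05 (0.0041 likewise) and ATP6V0A2 in BAQ12O against BAQ13 (0.033 with edgeR, 0.031 with DESeq2). Leaving out 1 library, the log2 fold changes ranged for Lys05 against Ctrl ATP6V0A2 -0.079 to 0.16, ATP6V0E1 -0.00085 to 0.080, ATP6V0E2 -0.031 to 0.15. They ranged for BAQ12 against Ctrl ATP6V0E2 -0.068 to 0.31. They ranged for BAQ12O against Ctrl ATP6V0D1 -0.028 to 0.46, ATP6V0E2 -0.00020 to 0.14. They ranged for BAQ12 against Lys05 ATP6V0A1 -0.22 to 0.030, ATP6V0E2 -0.14 to 0.24. They ranged for BAQ13 against Lys05 ATP6V0A1 -0.022 to 0.064, ATP6V0E2 -0.042 to 0.17. They ranged for BAQ12O against Lys05 ATP6V0A2 -0.014 to 0.34, ATP6V0E2 -0.075 to 0.11, ATP6AP1 -0.084 to 0.20, ATP6AP2 -0.10 to 0.042. They ranged for BAQ13 against BAQ12 ATP6V0A1 -0.012 to 0.24, ATP6V0B -0.19 to 0.37, ATP6V0E2 -0.17 to 0.21, ATP6AP2 -0.032 to 0.070. They ranged for BAQ12O against BAQ12 ATP6V0B -0.35 to 0.15, ATP6V0E1 -0.033 to 0.18, ATP6V0E2 -0.23 to 0.14. They ranged for BAQ12O against BAQ13 ATP6V0A1 -0.014 to 0.080, ATP6V0A2 -0.18 to 0.18, ATP6V0B -0.41 to 0.031, ATP6V0E2 -0.15 to 0.048. With at least 10 reads required in every library ATP6V0A2 gave no value. Low read counts limit what can be said of ATP6V0A2 (9 to 22 reads) and ATP6V0C (0 to 3). Why ATP6V0C had so few reads was not tested.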
